A study of Mus musculus with 15 samples.

Results

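The 9 genes described here are interferon-stimulated genes, namely *Ifit1*, *Ifit2*, *Ifit3*, *Isg15*, *Irf7*, *Oasl2*, *Usp18*, *Rsad2* and *Bst2*. They were taken by symbol from the 24982 gene symbols of the count files, and all 9 were found and could be tested. RNA-Seq was performed on whole aortas from 15 male C57BL/6 mice aged 10 months, with 5 mice per group and 1 aorta per library. All mice received Aldo-salt for 7 days, that is, aldosterone at 200 µg/kg per day together with drinking water containing 0.9% NaCl and 0.2% KCl, after 2 weeks of recovery from surgery. The control group had a sham operation and kept its testes, the orchiectomized group had the testes removed, and the DHT group was orchiectomized and carried a pellet of dihydrotestosterone, an androgen that aromatase cannot convert to estrogen. No group went without Aldo-salt, so an effect of Aldo-salt itself cannot be read from these libraries. The question was whether loss of gonadal androgen, or its replacement by DHT, altered the level of these genes in the aorta under Aldo-salt.

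In interferon signaling, type I interferons bind the receptor chains IFNAR1 and IFNAR2, and the kinases JAK1 and TYK2 activate transcription factors that assemble with IRF9 into the ISGF3 complex. ISGF3 binds a promoter element called the interferon-stimulated response element (ISRE) and switches on a common set of antiviral genes. Interferon-γ acts through a different receptor and on a different promoter element, the gamma-activated sequence (GAS). Many blood vessel and immune cells can carry out this program, and low levels of its genes are found in tissues without infection.

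The promoters are shown because the ISRE is the element that the type I program is known to share. Whether the matches relate to how the genes varied from mouse to mouse, described below, was not tested. Promoter windows from RefSeq on the GRCm38.p6 build, covering 250 bases before to 50 bases after the transcription start, were found for 8 of the 9 genes and not for *Usp18*. The ISRE was searched as GAAANNGAAA on both strands, so that its reverse complement TTTCNNTTTC also counted. It was present in 5 of the 8 genes with a window. The same letters were found in 3.77% of the 11036 tested genes with a window and in 3.99% of all 27025 genes with a window. Each stretch below is written 5′ to 3′ on the strand of its gene with 25 bases on either side of the matches, and the capitals mark the ISRE letters.
Ifit1, chr19:34640760-34640838, plus strand: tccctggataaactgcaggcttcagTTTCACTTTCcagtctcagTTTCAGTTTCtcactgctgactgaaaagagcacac
Ifit3, chr19:34583348-34583441, plus strand: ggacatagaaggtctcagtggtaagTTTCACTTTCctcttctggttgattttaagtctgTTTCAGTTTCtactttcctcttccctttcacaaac
Isg15, chr4:156200850-156200921, minus strand: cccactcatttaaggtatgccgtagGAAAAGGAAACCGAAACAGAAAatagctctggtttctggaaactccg
Rsad2, chr12:26456538-26456597, minus strand: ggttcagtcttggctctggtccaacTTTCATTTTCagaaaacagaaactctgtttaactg
Bst2, chr8:71537562-71537627, minus strand: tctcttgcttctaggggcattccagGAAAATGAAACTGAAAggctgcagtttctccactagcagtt

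*Ifit1* and *Ifit3* each held 2 separate matches, *Isg15* held 3 and *Bst2* held 2 that overlap one another, and *Rsad2* held 1. The matches lay between 156 and 57 bases before the start. No match to these letters was found in the windows of *Ifit2*, *Irf7* and *Oasl2*, which says only that this spelling is not in these 300 bases. The GAS letters TTCNNNGAA, which read the same on both strands, were found in *Ifit2* and *Bst2*, and in 8.19% of the tested genes with a window. The ISRE and GAS spellings can overlap in a promoter, and a match is a description of letters, not a measured binding site. The 3 Ifit genes lie within 100 kb of each other on chromosome 19 in GRCm38, *Ifit2* at chr19:34550694-34576419, *Ifit3* at chr19:34583531-34588731 and *Ifit1* at chr19:34640871-34650009, whereas the other genes lie on chromosomes 4, 5, 6, 7, 8 and 12.

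The libraries held 8268957 to 13816864 reads assigned to genes, and 14121 genes passed the filter on low counts. The marker lists for smooth muscle, endothelium and fibroblasts, 7 genes each, were tested in full and none of their genes was at 0 in any group, as the label of whole aorta requires. The 2 libraries with the highest summed level of the 9 genes, orchiectomized mouse 2 and DHT-treated mouse 3, also stood apart in depth or markers. Their mean standardized log2 CPM of the 9 genes was 0.92 and 1.45, and DHT-treated mouse 1 was the lowest at -1.17. Orchiectomized mouse 2 had the highest summed level of B cell, natural killer cell, macrophage and neutrophil markers among the 15 libraries and the lowest of smooth muscle markers, and DHT-treated mouse 3 was the shallowest library and had the highest smooth muscle level. For the 9 genes, the log2 fold changes that depend most on these libraries are also given without them.

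Compared per length of the union of annotated exons, *Bst2*, which encodes tetherin, a membrane protein that holds budding virus particles at the cell surface, had the highest level of the 9 genes in every group, with 61.1 ± 16.2 CPM (read counts scaled to the size of the library) per kb in control mice (SD, n = 5). *Isg15* and *Ifit3*, which did not differ beyond their spread, followed in control mice with 12.3 ± 3.28 and 11.6 ± 2.68 CPM per kb, and *Ifit2* had 7.87 ± 1.56. *Irf7* with 4.63 ± 2.16 and *Ifit1* with 4.1 ± 1.33 did not differ beyond their spread, nor did *Rsad2* with 2.84 ± 1.44, *Oasl2* with 2.53 ± 0.631 and *Usp18* with 2.3 ± 0.534. For scale, *Stat2* and *Irf9* had 4.89 ± 0.683 and 4.73 ± 0.652 CPM per kb in control mice. The order depends on the exon lengths, which came from GENCODE M21 and may not be those used for counting.

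In what follows a gene is said to rise or fall, or to be called, where its unadjusted P in edgeR was under 0.01, the threshold of the study. The P values printed are adjusted over all 14121 genes tested unless named as unadjusted.

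The IFIT proteins bind foreign RNA ends and block its translation. *Ifit1*, which recognizes RNA that lacks a cap methylation, was at 6.7, 11.2, 16.4, 9.56 and 10.4 CPM in control mice 1 to 5, at 10.0, 19.9, 10.2, 7.84 and 9.12 CPM in the orchiectomized mice and at 6.33, 15.5, 33.6, 6.42 and 12.5 CPM in the DHT-treated mice. The groups overlapped fully, and the highest values came from DHT-treated mouse 3 and orchiectomized mouse 2. The fitted log2 fold change was 0.07 ± 0.42 (SE) after orchiectomy and 0.38 ± 0.42 with DHT against orchiectomy (edgeR, adjusted P = 0.957 and 0.647). Without orchiectomized mouse 2 these values were -0.23 and 0.68, and without DHT-treated mouse 3 the latter was -0.14. *Ifit3*, which stabilizes IFIT1, was at 11.9, 23.0, 22.0, 22.0 and 22.0 CPM in control mice, at 21.3, 33.8, 20.2, 16.4 and 17.7 CPM in orchiectomized mice and at 12.3, 25.9, 36, 12.0 and 18.2 CPM in DHT-treated mice. Control mouse 1 lay far below the other 4 control mice, and the same orchiectomized and DHT-treated mice were again the highest of their groups. Reads of *Ifit3* can be shared with its near-identical copy *Ifit3b*, so its level is uncertain to that extent. The log2 fold change was 0.12 ± 0.3 after orchiectomy and -0.07 ± 0.3 with DHT against orchiectomy (edgeR, adjusted P = 0.905 and 0.927).

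*Ifit2*, a family member that binds AU-rich RNA, had another pattern over the mice. Its level was 28.3, 29.9, 27.9, 41.7 and 26.7 CPM in control mice, 24.8, 19.6, 40.6, 29.8 and 26.8 CPM in orchiectomized mice and 34.3, 31.4, 24.6, 24.7 and 22.5 CPM in DHT-treated mice. Orchiectomized mouse 2, among the highest for *Ifit1* and *Ifit3*, had the lowest *Ifit2* level of all 15 mice, and DHT-treated mouse 1, the lowest of all for *Ifit1*, had the highest of its group. The log2 fold change was -0.13 ± 0.19 after orchiectomy and -0.04 ± 0.19 with DHT against orchiectomy (edgeR, adjusted P = 0.817 and 0.932). *Ifit2* varied least of the 9 genes, and its 95% interval for orchiectomy against control ran from 0.695-fold to 1.2-fold.

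Among the other antiviral effectors, *Rsad2* encodes viperin, a radical SAM enzyme that makes a chain-terminating nucleotide. Its level was 8.97, 8.15, 21.8, 7.08 and 15.4 CPM in control mice, 7.97, 7.96, 9.44, 11.8 and 7.16 CPM in orchiectomized mice and 3.42, 8.38, 15.1, 12.1 and 10.2 CPM in DHT-treated mice. The highest value belonged to control mouse 3 and the lowest to DHT-treated mouse 1, a 6.37-fold range. *Rsad2* had the smallest P value of the 9 genes for orchiectomy against control, with a log2 fold change of -0.46 ± 0.36 (edgeR, adjusted P = 0.616). Without control mouse 3 it was -0.18, and over the fits that left out 1 library it ranged from -0.62 to -0.18.

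*Oasl2* encodes an oligoadenylate synthetase-like protein with ubiquitin-like domains. It was at 11.7, 14.9, 14.3, 17.1 and 22.4 CPM in control mice, at 14.2, 38.1, 18.4, 17.2 and 16.9 CPM in orchiectomized mice and at 6.16, 19.6, 22.0, 8.02 and 19.5 CPM in DHT-treated mice. Orchiectomized mouse 2 stood well above every other library, while DHT-treated mice 1 and 4 lay below all control and orchiectomized mice. The log2 fold change was 0.38 ± 0.35 after orchiectomy and -0.48 ± 0.35 with DHT against orchiectomy (edgeR, adjusted P = 0.677 and 0.465). Without orchiectomized mouse 2 these values were 0.05 and -0.14, and without DHT-treated mouse 1 the latter was -0.27.

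*Bst2* came closest to a difference. Its level was 40.8, 49.2, 61.6, 46.8 and 77.6 CPM in control mice, 67.8, 87.8, 35.4, 56.1 and 55.3 CPM in orchiectomized mice and 47.3, 78.3, 141, 56.0 and 93.3 CPM in DHT-treated mice. The 3 highest values were those of DHT-treated mice 3 and 5 and orchiectomized mouse 2, and the groups still overlapped. DHT-treated mice had a log2 fold change of 0.59 ± 0.29 against control mice, with a 95% interval from -0.03 to 1.21 (edgeR, adjusted P = 0.443). Without DHT-treated mouse 3 the log2 fold change was 0.31 (edgeR, adjusted P = 0.787), and without that mouse and orchiectomized mouse 2 together it was 0.32 (edgeR, adjusted P = 0.655). Against orchiectomized mice the log2 fold change was 0.46 ± 0.29 (edgeR, adjusted P = 0.385). This value was 0.64 without orchiectomized mouse 2 and 0.21 without DHT-treated mouse 3 (edgeR, adjusted P = 0.226 and 0.733), and leaving out DHT-treated mouse 1 gave 0.61 against orchiectomized mice and 0.74 against control mice (edgeR, adjusted P = 0.23 and 0.394).

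*Isg15* encodes a ubiquitin-like protein that is attached to other proteins during the response, and *Usp18* encodes the protease that removes it and also dampens signaling at IFNAR2. *Isg15* was at 5.52, 11.5, 8.13, 10.5 and 11 CPM in control mice, at 7.1, 12.6, 5.77, 8.8 and 6.76 CPM in orchiectomized mice and at 6.41, 14.2, 26.4, 6.79 and 6.52 CPM in DHT-treated mice. In the DHT group 3 mice were close together at the low end and mouse 3 was more than double the highest control mouse. The log2 fold change of *Isg15* was -0.19 ± 0.38 after orchiectomy and 0.55 ± 0.38 with DHT against orchiectomy (edgeR, adjusted P = 0.879 and 0.433). Without DHT-treated mouse 3 the latter was 0.08, and without orchiectomized mouse 2 these values were -0.4 and 0.76. *Usp18* was at 6.43, 6.09, 8.13, 4.18 and 7.3 CPM in control mice, at 4.2, 17.7, 4.63, 7.77 and 5.13 CPM in orchiectomized mice and at 4.36, 5.68, 9.61, 4.94 and 5.69 CPM in DHT-treated mice. The value of orchiectomized mouse 2 was the only one above 10 CPM. The log2 fold change of *Usp18* was 0.3 ± 0.37 after orchiectomy and -0.39 ± 0.37 with DHT against orchiectomy (edgeR, adjusted P = 0.775 and 0.587), and without that mouse these values were -0.24 and 0.15.

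*Irf7*, the transcription factor that amplifies type I interferon production once induced, was at 10.4, 14.0, 17.4, 14.4 and 31.4 CPM in control mice, at 12.4, 24.6, 11.7, 15.7 and 10.7 CPM in orchiectomized mice and at 7.78, 21.4, 31.5, 15.9 and 14.8 CPM in DHT-treated mice. Each group held 1 mouse well above the others, namely control mouse 5, orchiectomized mouse 2 and DHT-treated mouse 3. The log2 fold change was -0.22 ± 0.36 after orchiectomy and 0.28 ± 0.36 with DHT against orchiectomy (edgeR, adjusted P = 0.841 and 0.706). Without orchiectomized mouse 2 these values were -0.47 and 0.54, without DHT-treated mouse 3 the latter was 0.02, and without control mouse 5 the former was 0.1. The values by mouse can be seen in the plot of CPM by group.

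**Figure D1:**
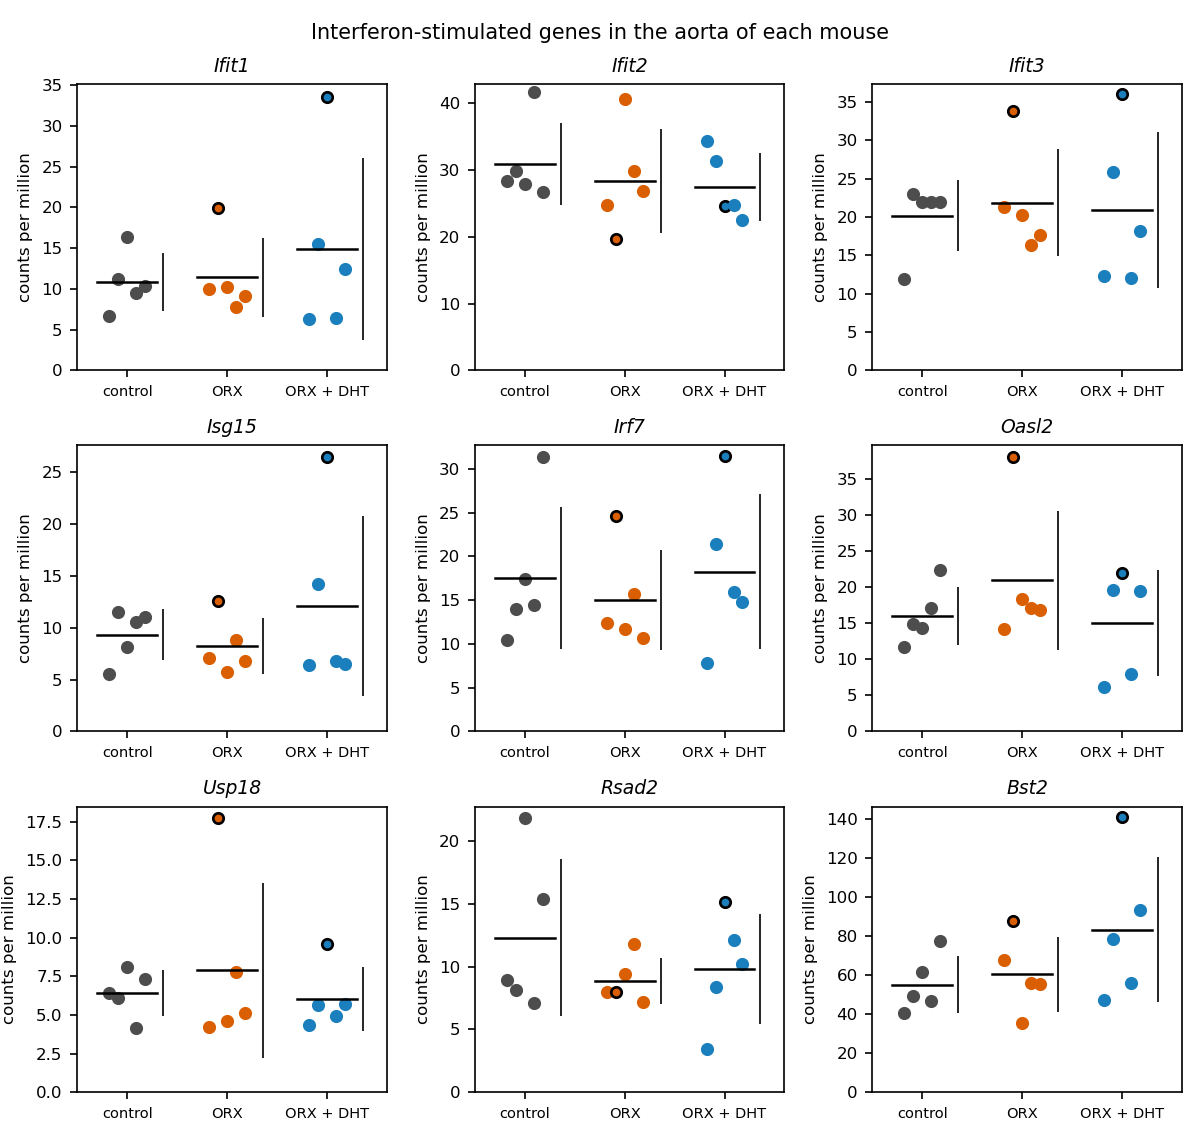
CPM (linear axes from 0) of the 9 genes in each of the 15 aortas, by group (ORX, orchiectomized, and ORX + DHT, orchiectomized with a DHT pellet). Points are mice, horizontal bars are means and vertical bars are SD with n = 5; ringed points are orchiectomized mouse 2 and DHT-treated mouse 3, and the groups overlap for every gene.

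None of the 9 genes passed the threshold of an unadjusted P under 0.01 in any comparison (edgeR), nor did DESeq2 or voom call any of them. In the main fit none had an unadjusted P under 0.05 either. With 1 library left out *Bst2* did. Its unadjusted P was 0.0193 for DHT against control without DHT-treated mouse 1 (edgeR). For DHT against orchiectomy without orchiectomized mouse 2 it was 0.041 (edgeR). Across all genes tested, the threshold of 0.01 called 2.08% higher and 1.13% lower after orchiectomy, 2.46% higher and 7.27% lower with DHT against orchiectomy, and 1.52% higher and 2.01% lower with DHT against control. With shares of this size a count of 0 among 9 genes is near the background and sets these genes apart in neither direction. The estimates were also mixed in sign, with 5 above and 4 below 0 in each comparison. Their median log2 fold change was 0.07 after orchiectomy, 0.14 with DHT against orchiectomy and 0.05 with DHT against control, beside medians of 0.04, -0.02 and 0 for all genes tested. The comparisons share mice, so their values are not independent of one another.

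These results do not show that the groups were alike, because the intervals are wide. The 95% intervals for orchiectomy against control ran from 0.57-fold to 1.95-fold for *Ifit1* and from 0.501-fold to 1.54-fold for *Isg15*. For DHT against orchiectomy they ran from 0.835-fold to 2.57-fold for *Isg15* and from 0.427-fold to 1.21-fold for *Oasl2*. In whole tissue, fewer cells of a type and less RNA per cell cannot be told apart.

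**Figure D2:**
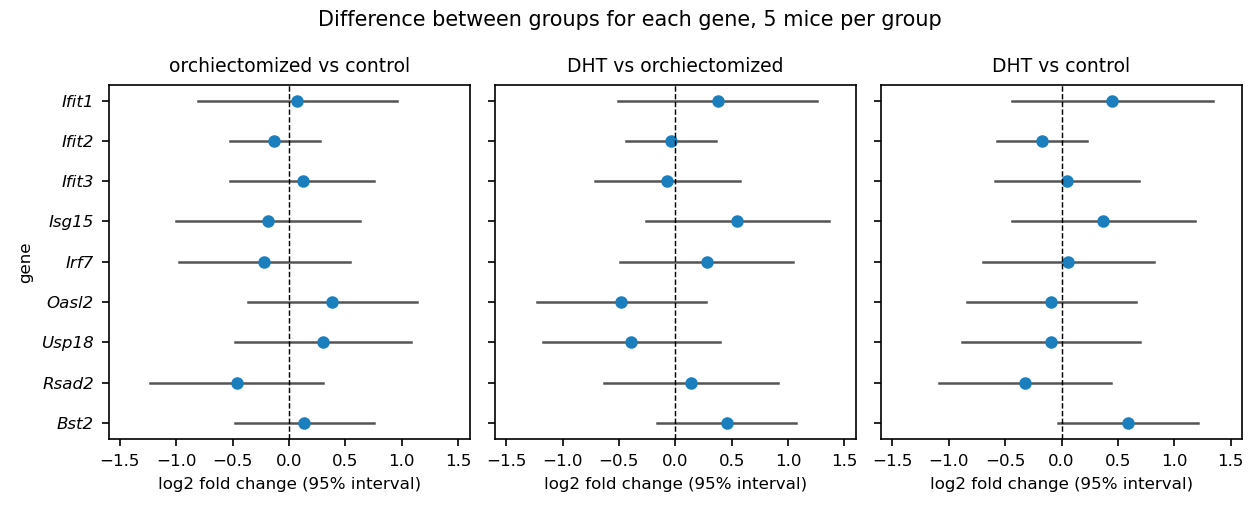
Log2 fold change (horizontal axis, points) with its 95% interval (lines) for each of the 9 genes (vertical axis) in the 3 comparisons, from edgeR with 5 mice per group. Every interval includes 0, and that of *Bst2* for DHT against control, from -0.03 to 1.21, does so most narrowly.

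The larger part of the variation lay between mice of the same group. The within-group SD of log2 CPM was 0.69 for *Ifit1*, 0.62 for both *Isg15* and *Rsad2*, 0.61 for *Irf7* and *Oasl2*, 0.57 for *Usp18*, 0.51 for *Ifit3*, 0.5 for *Bst2* and 0.3 for *Ifit2*, beside a median of 0.29 over all genes tested. *Ifit1* varied more than 90.6% of the tested genes did, and *Ifit2* more than 53.5%. The summed level of the 9 genes was 131 to 224 CPM in control mice, 156 to 262 CPM in orchiectomized mice and 128 to 340 CPM in DHT-treated mice. DHT-treated mice thus held both the lowest sum, in mouse 1, and the highest, in mouse 3. Mouse 3 was the highest of all 15 for 5 genes and among the top 3 for 8 genes, orchiectomized mouse 2 was among the top 3 for 7, and DHT-treated mouse 1 was the lowest for 4.

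Of the 9 genes, 8 varied in the same direction over the 15 libraries. Pearson's r of each gene with the mean standardized log2 CPM of the other 8 was 0.88 for *Ifit1* and *Irf7*, 0.87 for *Ifit3*, 0.81 for *Isg15*, 0.73 for *Oasl2*, 0.68 for *Bst2*, 0.62 for *Usp18* and 0.44 for *Rsad2*. *Ifit2* ran the other way, with r = -0.48. These values describe 15 libraries that share their tissue and processing and differ in depth, and they are given without a test. With the group means removed, r remained between 0.47 and 0.9 for the 8 genes and was -0.5 for *Ifit2*. Leaving out the 2 libraries farthest from the median, r was between 0.48 and 0.79 for the 8 genes and -0.4 for *Ifit2*. Among the 36 pairs of the 9 genes, the median r was 0.55 and 28 pairs were above 0. Without orchiectomized mouse 2 and DHT-treated mouse 3, the median was 0.38 and 31 pairs were above 0.

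**Figure D3:**
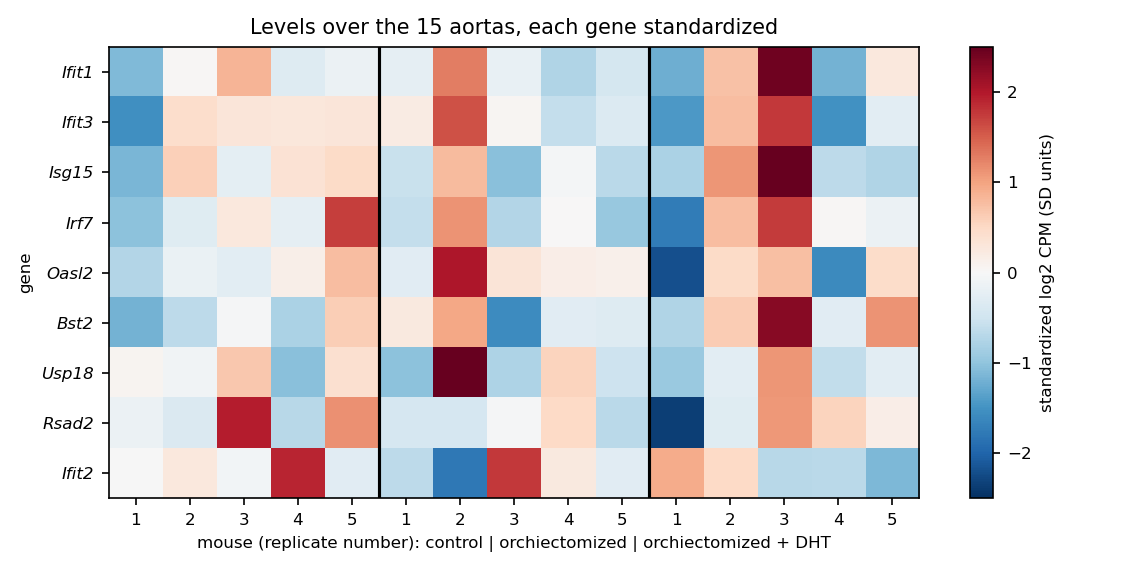
Standardized log2 CPM (color, in SD units over the 15 libraries, clipped at 2.5) of the 9 genes (rows, ordered by r with the other genes) in each mouse (columns, by group and replicate number). Orchiectomized mouse 2 and DHT-treated mouse 3 are red for most genes, DHT-treated mouse 1 is blue for most, and *Ifit2* in the bottom row departs from this pattern.

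The tested genes whose levels most resembled the mean of the 9 genes over the 15 libraries were *Oas1b* and *Ifit3b* (both r = 0.91), *Oas1a* (0.89), *Stat2* and *Ifi44* (both 0.88), *Rtp4* and *Trem2* (both 0.87), *Zbp1* (0.84), *Oas1g* (0.82) and *Oas3* (0.81). Of these 10 genes, 9 belong to the list of other type I interferon-induced genes, and the exception was *Trem2*, a receptor of macrophages. *Trem2* was at 2.14 to 6.11 CPM over the 15 libraries, and its r was 0.89 both with the group means removed and without orchiectomized mouse 2 and DHT-treated mouse 3. *Oas1a* and *Oas1g* are close copies whose reads may be shared, and *Ifit3b* may share reads with *Ifit3*. Over whole lists, the median r was 0.62 for the 51 other type I genes tested, 0.54 for the 29 interferon-γ-induced genes, 0.39 for the 10 STAT and IRF factors and 0.04 for the 9 receptor chains and kinases, the last being the same as the 0.04 over all 14112 other genes tested. The ISRE letters were in 5 of the 7 most similar genes that had a promoter window, in 51.3% of the 39 other type I genes with one and in 52.4% of the 21 interferon-γ-induced genes with one. The GAS letters were in 1 of these 7 genes, in 15.4% of the 39 and in 42.9% of the 21, beside 8.19% of the tested genes with a window.

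The ligands could not be followed. All 15 interferon genes of the list were in the files, none passed the filter, and together they had 5 counts in the control group, 4 in the orchiectomized group and 1 in the DHT group. *Ifnb1* was at 0 in all libraries, which at 3 counts allows up to 0.207 to 0.384 CPM depending on the library (counting error only), and *Ifng*, which encodes interferon-γ, had 1, 3 and 1 counts in the 3 groups. The type I receptor genes were well detected. *Ifnar1* was at 61.1 ± 3.3, 62.1 ± 7.88 and 60.4 ± 1.42 CPM in control, orchiectomized and DHT-treated mice (SD, n = 5), and *Ifnar2* was at 72.9 ± 11.5, 70.9 ± 12.1 and 58.7 ± 6.91 CPM. With DHT against orchiectomy the log2 fold change was -0.04 ± 0.08 for *Ifnar1* and -0.27 ± 0.14 for *Ifnar2* (edgeR, adjusted P = 0.826 and 0.262), and for the interferon-γ receptor it was -0.21 ± 0.08 for *Ifngr1* and -0.17 ± 0.15 for *Ifngr2* (edgeR, adjusted P = 0.129 and 0.563). Of the 9 receptor and kinase genes 1 fell with DHT in each comparison, beside all-gene shares of 7.27% against orchiectomized mice and 2.01% against control mice (edgeR). This was *Jak1*, the kinase used by both interferon types, with a log2 fold change of -0.39 ± 0.12 against orchiectomized mice and -0.41 ± 0.13 against control mice (edgeR, adjusted P = 0.0894 and 0.233). The call against orchiectomized mice was retained in 7 of the 15 fits that left out 1 library and in 4 of 8 other alternatives, and that against control mice in 11 and 7. Voom also called *Ifnar2* lower for DHT against control, where edgeR gave a log2 fold change of -0.31 ± 0.14 (adjusted P = 0.388).

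*Stat2* and *Irf9*, which encode components of ISGF3, did not pass. With DHT against orchiectomy the log2 fold change was 0.06 ± 0.15 for *Stat2* and -0.26 ± 0.19 for *Irf9* (edgeR, adjusted P = 0.86 and 0.474). *Irf5* and *Irf8*, of the same family as *Irf9*, did change. *Irf5*, which acts downstream of Toll-like receptors, was at 10.8 ± 2.13, 18.3 ± 6.87 and 7.11 ± 1.37 CPM in control, orchiectomized and DHT-treated mice, and *Irf8*, a factor of myeloid and B cells, was at 7.68 ± 2.66, 18.3 ± 15.3 and 5.54 ± 1.12 CPM. *Irf5* rose after orchiectomy by a log2 fold change of 0.76 ± 0.22 (edgeR, adjusted P = 0.285) and fell with DHT by a log2 fold change of -1.36 ± 0.23 (edgeR, adjusted P = 0.00805). The log2 fold changes of *Irf8* for these comparisons were 1.25 ± 0.42 and -1.72 ± 0.43 (edgeR, adjusted P = 0.308 and 0.0342). Without orchiectomized mouse 2 the log2 fold changes after orchiectomy were 0.5 for *Irf5* and 0.61 for *Irf8* and neither was called (the calls were retained in 12 and 4 of the 15 fits that left out 1 library), whereas both decreases with DHT were called in all 15 of these fits, with *Irf8* at -1.07 without that mouse (edgeR, adjusted P = 0.0611).

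Among 51 other type I interferon-induced genes tested of 54 listed, 1 rose after orchiectomy, 2 fell with DHT against orchiectomy and none passed for DHT against control (edgeR). These counts are near or below the all-gene shares, which were 2.08% for higher calls in orchiectomized against control mice and 7.27% for lower calls under DHT. The count of 2 varied with single libraries, being 7 without orchiectomized mouse 1, 5 without mouse 5 and 0 without mouse 2 of that group. For DHT against control 4 of the 51 genes had an unadjusted P under 0.05, and DESeq2 and voom each called 2. The median log2 fold changes were 0.13, -0.26 and -0.16, with 40 of the 51 estimates above 0 after orchiectomy and 41 below 0 with DHT against orchiectomy. Both calls of *Ifitm1*, a membrane protein that restricts virus entry, came from a single library. *Ifitm1* was at a median of 1.99 CPM in the orchiectomized mice but at 166 CPM in orchiectomized mouse 2, with 1877 of the group's 1951 counts, and its log2 fold changes of 5.1 and -5.63 became 0.57 and -1.1 without that library, neither of which was called. The summed neutrophil markers in that library were at 1180 CPM, beside a median of 46.4 in the orchiectomized group and a range from 8.6 to 35.6 in control mice, and their part in the *Ifitm1* value was not tested. *Gm4951*, an interferon-inducible GTPase gene, fell with DHT by a log2 fold change of -1.3 ± 0.42 (edgeR, adjusted P = 0.0892), and this call was retained in 7 of the 15 fits that left out 1 library.

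Calls were also found among genes known best as targets of interferon-γ. Of 29 tested genes, 2 rose after orchiectomy, 5 fell with DHT against orchiectomy and 1 fell with DHT against control (edgeR), beside all-gene shares of 2.08% higher, 7.27% lower and 2.01% lower. In the same order and directions DESeq2 called 3, 6 and 1, and voom called 3, 3 and 1. For DHT against control the gene that voom called was not the one that edgeR called. Their median log2 fold changes were 0.23, -0.43 and -0.26, and with DHT against orchiectomy 28 of the 29 estimates were below 0, beside 41 of the 51 other type I genes and 7528 of all 14121 genes. *Gbp2*, a guanylate-binding protein, was at 38.2 ± 6.66, 45.8 ± 5.3 and 30.7 ± 5.06 CPM in control, orchiectomized and DHT-treated mice and fell with DHT by a log2 fold change of -0.58 ± 0.14 (edgeR, adjusted P = 0.0323). Its relative *Gbp8*, a low gene with 1 to 40 counts per library, was at 0.818 ± 0.509, 2.42 ± 0.93 and 0.344 ± 0.322 CPM and fell with DHT by a log2 fold change of -2.72 ± 0.54 (edgeR, adjusted P = 0.0164). *Ciita*, the master activator of MHC class II genes, fell by a log2 fold change of -1.62 ± 0.45 (edgeR, adjusted P = 0.0525), and *Gbp2*, *Gbp8* and *Ciita* retained this call in all 15 fits that left out 1 library. *Serpina3g* and *Ifi47*, an immunity-related GTPase, fell by log2 fold changes of -1.96 ± 0.55 and -1.08 ± 0.33 (edgeR, adjusted P = 0.0552 and 0.0759), but without orchiectomized mouse 2 these values were -1.45 and -0.65 and neither was called.

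After orchiectomy *Gbp8* rose by a log2 fold change of 1.53 ± 0.49 and *Tap1*, a peptide transporter for antigen presentation, by 0.68 ± 0.22 (edgeR, adjusted P = 0.297 and 0.308). Neither rise passed an adjusted P under 0.05, and the calls were retained in 8 and 5 of the 15 fits that left out 1 library. Without orchiectomized mouse 2 the values were 1.41 and 0.42, neither of which was called. *Gbp6* fell with DHT against control by a log2 fold change of -1.1 ± 0.37 (edgeR, adjusted P = 0.279), which was retained in 7 of 15. Reads of the guanylate-binding protein genes can be shared among copies of the family. Whether the interferon-γ list differed from the 9 genes in its response was not tested.

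**Figure D4:**
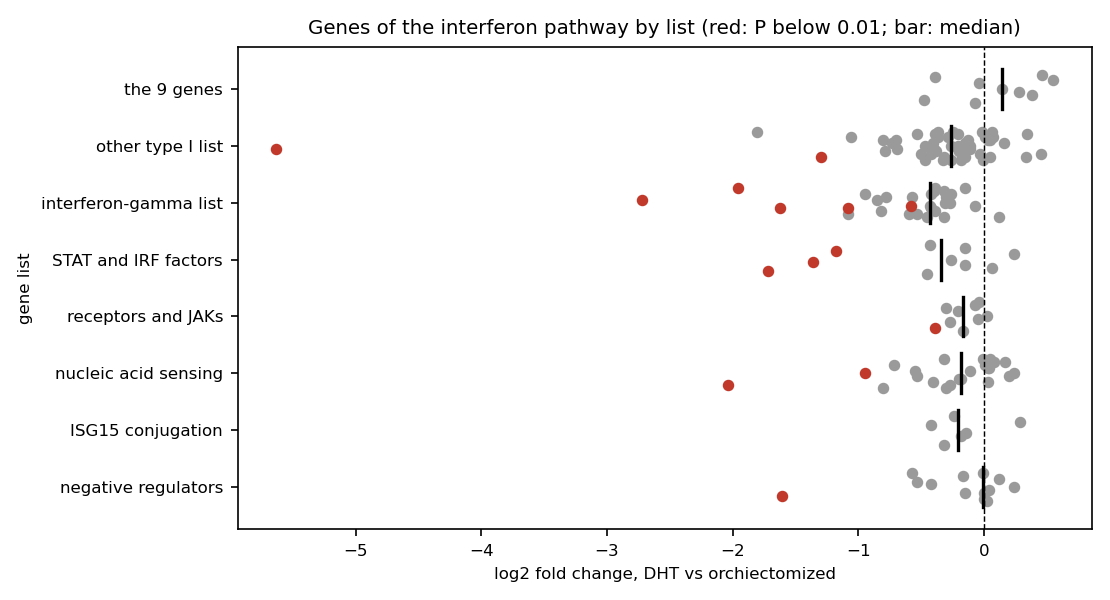
Log2 fold change for DHT against orchiectomized mice (horizontal axis) of each tested gene, by list (vertical axis), with vertical bars at the list medians and red points for an unadjusted P under 0.01 (edgeR). The 9 genes lie around a median of 0.14 with none called, while the interferon-γ list has a median of -0.43 with 5 called and the point farthest left is *Ifitm1* at -5.63.

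Upstream of the interferons, 2 of 23 tested sensing genes fell with DHT against orchiectomy, near the 7.27% of all genes, and none passed in the other comparisons (edgeR; 3 of the 23 had an unadjusted P under 0.05 in each of those; DESeq2 called 0 in both, and voom 2 for DHT against control). *Tmem173*, which encodes STING, the adaptor that responds to cytosolic DNA, was at 11.6 ± 2.95, 14.9 ± 5.11 and 7.7 ± 1.45 CPM in control, orchiectomized and DHT-treated mice and fell by a log2 fold change of -0.95 ± 0.24 (edgeR, adjusted P = 0.0384). *Tlr9*, an endosomal DNA receptor, fell by a log2 fold change of -2.04 ± 0.57 (edgeR, adjusted P = 0.0525). The calls were retained in all 15 and in 14 of the 15 fits that left out 1 library, the latter being lost without orchiectomized mouse 4 and with voom. None of the 6 genes of the ISG15 conjugation machinery passed in any comparison (edgeR, DESeq2 or voom), and none had an unadjusted P under 0.05 in edgeR. Among 13 negative regulators tested, 1 fell with DHT against orchiectomy, again near the 7.27% of all genes. This was *Ptpn6*, a phosphatase of blood cells, with a log2 fold change of -1.61 ± 0.37 (edgeR, adjusted P = 0.0266). Voom did not call it in that comparison, and DESeq2 also called it higher after orchiectomy.

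Markers of several cell types differed in the same comparisons. Of all genes, 2.08% were called higher and 1.13% lower after orchiectomy, and 7.27% lower and 2.46% higher with DHT against orchiectomy. None of the 14121 genes tested passed an adjusted P under 0.05 after orchiectomy (edgeR, smallest adjusted P = 0.096). The markers called in that comparison therefore passed only the unadjusted threshold. With DHT against orchiectomy 3 of 7 endothelial genes fell. *Pecam1*, *Tek* and *Vwf* had log2 fold changes of -0.53, -0.89 and -0.82 (edgeR, adjusted P = 0.0323, 0.0153 and 0.0437). The endothelial genes *Cdh5*, *Emcn*, *Erg* and *Kdr* were at -0.3, -0.37, -0.08 and 0 and were not called. Of 7 fibroblast genes, *Lum* and *Dpt* fell by -1.9 and -0.91 and *Dpep1* rose by 0.76 (edgeR, adjusted P = 0.0036, 0.0243 and 0.0552). All 7 smooth muscle estimates were above 0, with a median of 0.44, and none passed, although 5 had an unadjusted P under 0.05. For DHT against control, 1.52% of all genes were called higher and 2.01% lower. There *Pecam1*, *Tek* and *Vwf* fell by log2 fold changes of -0.47, -0.76 and -0.75 (edgeR, adjusted P = 0.17, 0.0908 and 0.206). *Lum* and the fibroblast gene *Pi16* fell by -1.43 and -0.51 (edgeR, adjusted P = 0.0432 and 0.21). Of 6 tested neutrophil genes, *S100a8* and *S100a9* rose by 1.94 and 1.89 (edgeR, adjusted P = 0.279 and 0.261). Of the 6 estimates 4 were above 0 and 2 below, namely *Csf3r* at -0.17 and *Mmp9* at -0.78. The summed neutrophil markers were at 8.6 to 35.6 CPM in control mice and 12.2 to 23.4 CPM in DHT-treated mice. The adipocyte gene *Lep* fell after orchiectomy by a log2 fold change of -1.85 ± 0.52 (edgeR, adjusted P = 0.268). Among the leukocyte lists, after orchiectomy 4 of 6 tested neutrophil and 4 of 7 monocyte markers rose (edgeR, smallest adjusted P = 0.096 and 0.244). With DHT against orchiectomy 4 and 3 of them fell, 2 and 3 at an adjusted P under 0.05 (edgeR). After orchiectomy 5 of 6 tested T cell markers and 6 of 6 B cell markers rose (edgeR, smallest adjusted P = 0.176 in each list). With DHT against orchiectomy all 6 of each fell, 5 of each at an adjusted P under 0.05 (edgeR). The summed T cell markers were at 5.61 to 16.1 CPM in control mice, 9.37 to 77.1 in orchiectomized mice and 4.7 to 8.02 in DHT-treated mice, and none of the 9 T cell genes in the files was at 0 in any group. The B cell markers were at 3.75 to 9.59, 7.75 to 167 and 3.34 to 11.5 CPM, the highest being orchiectomized mouse 2. Plasmacytoid dendritic cells are known for high *Irf7* and *Bst2*, and their 8 markers were at 94.8 to 154, 112 to 402 and 85.6 to 153 CPM, with 2 of 6 tested genes, 1 of them *Irf8*, called in each comparison with the orchiectomized group. That sum rests largely on *Tcf4*, at 75 to 121 CPM in all 15 libraries, and in orchiectomized mouse 2 on *Cox6a2*, at 214 CPM beside a median of 2.41 in its group. *Siglech*, a defining marker of these cells, was at 1.14 to 5.01 CPM, with a log2 fold change of -0.37 after orchiectomy (edgeR, adjusted P = 0.732). The 12 macrophage markers were at 538 to 1270, 826 to 1660 and 540 to 923 CPM, and 3 of them fell with DHT against orchiectomy. In DHT-treated mouse 3, the library with the highest summed level of the 9 genes, the T cell, B cell and neutrophil markers stood at ranks 11, 10 and 11 of the 15 libraries, the macrophage markers at rank 9 and the plasmacytoid dendritic cell markers at rank 5. In orchiectomized mouse 2, the library with the next highest sum, the B cell, macrophage, neutrophil and plasmacytoid dendritic cell markers stood at rank 1 and the T cell markers at rank 2. The summed monocyte list stood at rank 15 there, but 1280 of its 1500 CPM were *Fn1*, a matrix gene at group means of 3030 to 3460 CPM, whereas *Ccr2*, *Chil3* and *Ly6c2* of the same list were at 38.5, 51.2 and 13.9 CPM, each the highest of the 15 libraries. The part of leukocyte content in the level of the 9 genes was not tested beyond these values.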

How the data were processed

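The authors deposited raw counts of reads per gene symbol, with no normalization, for 15 poly(A) RNA-Seq libraries. The submitters' processing notes name STAR, Cufflinks, DESeq2 and the mm10 build (GRCm38) without versions or roles. The counting program, annotation and strand setting are not given in the sources used here, so antisense or overlapping reads cannot be told apart. Groups and replicate numbers came from the labels. Nothing in the labels places libraries in a sequencing batch.

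The main test was the quasi-likelihood test of edgeR 4.0.16 under R 4.3.3 (filterByExpr with a minimum count of 10 and total of 15, TMM, 3 groups in 1 fit over 15 libraries). Calls used an unadjusted P under 0.01, the study's threshold, and Benjamini-Hochberg adjustment covered all 14121 genes tested. The log2 CPM used a prior count of 3. A gene with 10 counts in a median library is at 0.916 CPM. Before use, the fit was checked on simulated counts that followed the means of the real libraries and carried known changes. DESeq2 1.42.0 and voom of limma 3.58.1 were alternatives, with others in the closing section. Exon lengths came from GENCODE M21. Entries for unassigned reads were left out (no feature, 6.26% to 14.4%; ambiguous, 1.34% to 1.97%).

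The 9 genes and all lists were chosen with earlier results of these data known. Besides the 9 genes, the text names up to 6 genes per list with the smallest P among those called, the receptor chains, *Stat2* and *Irf9*, and the 10 genes with the highest r with the 9 genes. P values measure the spread between the 5 mice of a group. Genes withheld from the text are not reported here.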

Additional observations from a re-analysis of the deposited data

Results flagged for a closer look

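Among the 27 sets of 5 log2 CPM values, 1 for each gene and group, 4 held a mouse whose gap to its nearest neighbor was a large part of the group's range by Dixon's ratio (critical value 0.71). Chance alone gives about 1 in 20. *Ifit1* and *Oasl2* in the orchiectomized group had ratios of 0.717 and 0.737, both from orchiectomized mouse 2 as the highest. *Ifit2* in the control group had a ratio of 0.751, with control mouse 4 the highest at 41.7 CPM. *Ifit3* in the control group had a ratio of 0.927, with control mouse 1 the lowest at 11.9 CPM and the other 4 mice between 22.0 and 23.0 CPM.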

How the results depend on the processing

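None of the 9 genes was called in any of the 3 comparisons under any of the 25 alternatives (DESeq2, RLE size factors, no filter, at least 10 counts in every library, only the 2 groups compared, the replicate number as a block, a robust fit, voom with quality weights, an adjusted threshold, each library left out in turn, and orchiectomized mouse 2 and DHT-treated mouse 3 left out together, the last chosen after seeing the data). Of 648 log2 fold changes of these genes under alternatives, 600 kept their sign and 48 changed it, with values between -0.24 and 0.18. The replicate numbers are not stated to pair the mice. The correlation of same-numbered mice ran from -0.47 to 0.46 and was over 0.1 in 4 of 15 pairs. These pairs reuse the same 15 libraries and were not set beside differently numbered pairs. They therefore cannot decide whether the numbers mark mice handled together. With the replicate block *Ifit3* was at -0.03 for DHT against control, and the number of other type I genes called was 0 after orchiectomy, 3 with DHT against orchiectomy and 0 with DHT against control.

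For orchiectomy against control, voom gave -0.1 for *Ifit1*, -0.05 for *Ifit3* and -0.16 for *Usp18*, and leaving out both mice gave -0.22, -0.1 and -0.23 for these and -0.04 for *Bst2*. For DHT against orchiectomy, voom gave 0.01 for *Ifit2*, 0.18 for *Ifit3* and 0.03 for *Usp18*, and leaving out both mice gave -0.1 for *Rsad2*. For DHT against control, leaving out both mice gave -0.09 for *Ifit1*, -0.24 for *Ifit3*, -0.13 for *Isg15* and -0.23 for *Irf7*. The cause was not tested. Leaving out 1 library, the values for orchiectomy against control ranged from -0.23 to 0.24 for *Ifit1*, -0.11 to 0.18 for *Ifit3*, -0.47 to 0.1 for *Irf7*, -0.24 to 0.42 for *Usp18* and -0.05 to 0.29 for *Bst2*. For DHT against orchiectomy they ranged from -0.14 to 0.68 for *Ifit1*, -0.13 to 0.15 for *Ifit2*, -0.33 to 0.15 for *Ifit3*, -0.58 to 0.15 for *Usp18*, -0.04 to 0.36 for *Rsad2*, -0.07 to 0.04 for *Ifnar1* and -0.04 to 0.14 for *Stat2*. For DHT against control they ranged from -0.09 to 0.65 for *Ifit1*, -0.24 to 0.19 for *Ifit3*, -0.13 to 0.53 for *Isg15*, -0.23 to 0.38 for *Irf7*, -0.27 to 0.11 for *Oasl2* and -0.32 to 0.01 for *Usp18*.

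The count of other type I genes called after orchiectomy, 1 as reported, was 0 with at least 10 counts in every library, voom, the adjusted threshold or both mice left out, and 0 to 2 with 1 library left out (0 without orchiectomized mouse 2, and 2 without mouse 1 or 3 of that group). With DHT against orchiectomy, 2 as reported, it was 1 without a filter, with the adjusted threshold or with both mice left out, 0 with at least 10 counts in every library or voom, and 0 to 7 with 1 library left out (0 without orchiectomized mouse 2, 7 without mouse 1 and 5 without mouse 5 of that group, and 4 without control mouse 5). With DHT against control, 0 as reported, it was 2 with DESeq2 or voom and 0 to 2 with 1 library left out (2 without control mouse 1 or DHT-treated mouse 2). Over all genes, DESeq2 called 316 lower after orchiectomy beside 160 in edgeR, and 645 higher with DHT against orchiectomy beside 347. Depth limits the low genes most, such as *Gbp8* and *Oas3*.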
